A study of Homo sapiens with 6 samples.

Results

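The genes described here are the ETS transcription factor genes of prostate cancer fusions and the androgen-responsive genes that lend them their front ends. The set has 10 of the 19775 genes that the array's annotation names. TMPRSS2, SLC45A3, NDRG1 and ACSL3 are the 5' partners, and ERG, ETV1, ETV4, ETV5, FLI1 and ELK4 are the ETS factors. Members were all probe sets whose annotation names exactly 1 of these genes, whatever their signal. This gave 36 probe sets, 7 of partners and 29 of ETS factors, out of 54675 on the array, of which 41097 name 1 gene. ACSL3 has no probe set that names it alone and was not analysed here.

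LNCaP is an established human prostate cancer line that grows in response to androgen. For 3 days all 6 cultures grew in phenol red-free RPMI with 10% charcoal/dextran-treated supplement, which removes steroids. In the DHT group, 3 cultures were then given 100 nM dihydrotestosterone (DHT), a potent natural androgen, for 48 h, and 3 others formed the control group, for which the labels name no vehicle. One Affymetrix array was run on the total RNA of every culture.

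In many prostate cancers a rearrangement joins the control region and first exons of an androgen-responsive gene to the coding part of an ETS gene, so that an ETS factor that prostate cells hardly make comes under androgen control. TMPRSS2 joined to ERG is the best known such fusion. LNCaP carries no TMPRSS2 to ERG fusion. In this line the whole ETV1 locus is instead known to sit within MIPOL1, close to FOXA1, on another chromosome. SLC45A3 and ELK4 are neighbours, and a chimeric transcript that runs from SLC45A3 into ELK4 is known to form in prostate cells without a DNA break.

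The arrays gave signal intensities, a linear measure of brightness scaled by the depositors so that the trimmed mean of each array was 100.03. Arrays of the same group had a correlation of 0.973 to 0.979 over probe sets, which are not independent replicates, and arrays of different groups one of 0.959 to 0.967. The median signal was 27.6 ± 2.16 in control and 28.8 ± 1.10 with DHT (SD, n = 3 each). The 3' to 5' signal ratio of the ACTB control probe sets, a measure of RNA and labelling quality, was 1.37 ± 0.05 in control and 1.77 ± 0.07 with DHT, without overlap. That of GAPDH was 0.904 ± 0.044 and 1.06 ± 0.05. For both, the two-sided exact permutation test gave p = 0.1, the smallest that 3 against 3 arrays allow. The part of this difference in the results was not tested. Of 8 tested luminal prostate markers, such as KLK3, 3 were higher, 2 lower and 3 not called in limma with the deposited scaling. Of all 14247 tested genes 7.07% were higher and 6.04% lower. None of the basal markers KRT5, KRT14 and KRT15 reached the limit on dim probe sets. In RNA from whole cultures, fewer cells of a type and less RNA per cell cannot be told apart.

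Among the members, the rises with the deposited scaling were in the 5' partners TMPRSS2 and SLC45A3 and in the ETS gene ELK4. With spike scaling 3 of the 4 TMPRSS2 and both SLC45A3 probe sets still passed as higher, and no ELK4 probe set did. Of the 36 member probe sets, 24 were bright enough to test and 12, all of ETS genes, lay below a geometric mean signal of 16.1, the limit under which the lowest 40% of the array's probe sets were left out. At a limma adjusted p of 0.05, 8 of the 24 were higher with DHT, 6 of partners and 2 of ELK4, where 5.08% of all 32768 tested probe sets were higher. No member was lower in limma, where 5.27% of all were lower. At an unadjusted p under 0.05 in limma, 1 member probe set was lower and 10 higher, where 3902 of all 32768 were lower and 3931 higher. The groups did not overlap, with DHT higher, for 10 member probe sets, where 14.9% of all tested probe sets did so. They lay below for 1, where 13.7% of all did so. Both counts of 10 include FLI1 211825_s_at, whose control mean of 10.6 lay below the limit, so that it was tested only through the DHT arrays. It adds no support to either count. The median difference over all tested probe sets was 0.01 on the log2(signal + 16) scale, the scale of every difference given here, which understates the change of dim genes. With the arrays scaled to the hybridisation spikes, foreign RNAs added before hybridisation, that median was -0.47. With this scaling 5 of the 24 tested member probe sets were higher and 6 lower, where 189 of all 32768 were higher and 16249 lower. The share of higher among all calls was 49.1% with the deposited scaling, 36.9% with equal array medians and 1.15% with spike scaling. The spikes themselves differed between groups, with a mean log2 offset of -0.30 ± 0.18 in control and 0.30 ± 0.10 with DHT.

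**Figure D1:**
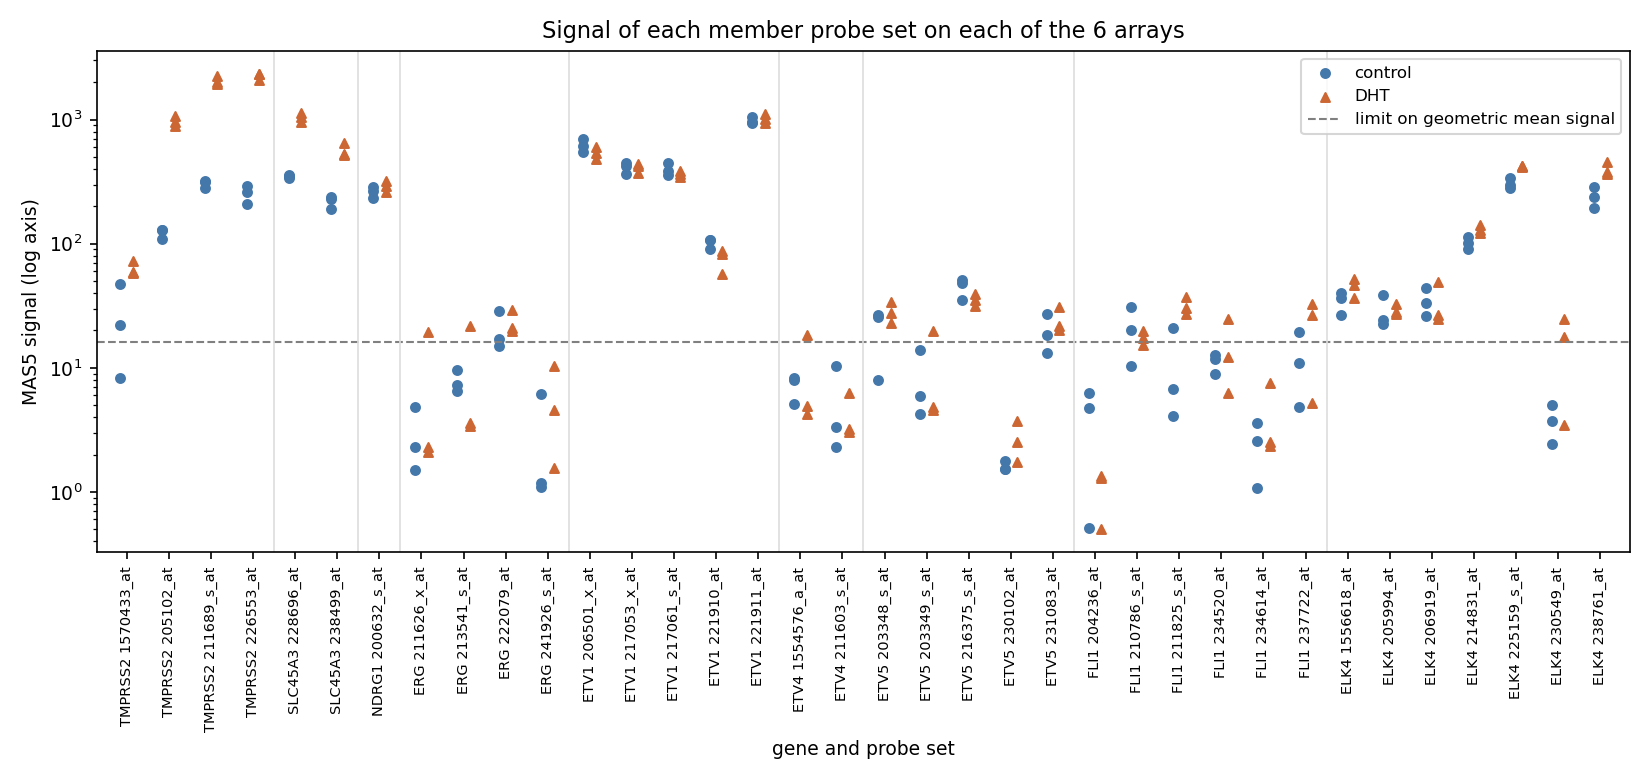
Signal of each of the 36 member probe sets on each array (vertical log axis, MAS5 signal), with circles for the 3 control arrays, triangles for the 3 DHT arrays and a dashed line at the limit of 16.1 on the geometric mean signal. Both SLC45A3 probe sets and all 4 TMPRSS2 probe sets have every DHT array above every control array, whereas both ETV4 probe sets lie under the limit.

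The promoter sequences of members that the series' expression values bear on are shown here as RefSeq gives them for GRCh38.p14, 250 bases before to 50 after a transcript start. The table of promoters held 13 for 5 of the genes (ACSL3, ELK4, ERG, ETV1 and SLC45A3). Each was searched on both strands for AGAACA, a 6-base core of androgen receptor sites, for AGAACA followed after 3 bases by its reverse complement TGTTCT, and for CCGGAAGT, a core bound by ETS factors. Capitals mark a match. SLC45A3 (chr1:205680460-205680759, minus strand) is shown because it was the only partner with both a promoter in the table and a tested probe set. It held none of these letters. ELK4 (chr1:205631962-205632261, minus strand) is shown because it was the ETS member that rose with the deposited scaling, on 2 of its 6 tested probe sets. With spike scaling no ELK4 probe set passed as higher. The ELK4 promoter held CCGGAAGT 22 bases before its start. One of the 6 ETV1 promoters (chr7:13990653-13990952, minus strand) is shown because it held TGTTCT, the reverse complement of AGAACA, 17 bases before its start. A second ETV1 promoter that overlaps it held the same letters 13 bases before its own start.
SLC45A3: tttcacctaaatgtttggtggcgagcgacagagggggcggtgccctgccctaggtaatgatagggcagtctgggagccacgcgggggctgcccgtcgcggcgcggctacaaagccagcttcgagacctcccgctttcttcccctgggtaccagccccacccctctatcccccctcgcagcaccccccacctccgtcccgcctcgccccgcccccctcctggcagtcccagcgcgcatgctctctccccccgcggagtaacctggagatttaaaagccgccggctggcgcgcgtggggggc
ELK4: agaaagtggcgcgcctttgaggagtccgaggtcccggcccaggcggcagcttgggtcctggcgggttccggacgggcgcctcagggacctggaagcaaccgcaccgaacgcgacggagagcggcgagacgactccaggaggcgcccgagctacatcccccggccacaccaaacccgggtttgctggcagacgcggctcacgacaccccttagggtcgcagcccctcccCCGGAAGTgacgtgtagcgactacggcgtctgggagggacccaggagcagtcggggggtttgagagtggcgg
ETV1: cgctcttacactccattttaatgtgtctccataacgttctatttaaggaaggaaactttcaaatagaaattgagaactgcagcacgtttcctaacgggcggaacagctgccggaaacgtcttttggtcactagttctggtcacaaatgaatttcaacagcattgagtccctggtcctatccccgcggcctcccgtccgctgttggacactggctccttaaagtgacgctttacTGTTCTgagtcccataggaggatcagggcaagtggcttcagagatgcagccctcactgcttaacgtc
Of all 35116 promoters in the table, 14.8% held AGAACA on either strand, 4.14% held CCGGAAGT and 1 held the full inverted repeat. A match is a description of these letters only.

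TMPRSS2, a serine protease anchored in the cell membrane of luminal prostate cells, was higher with DHT on all 4 of its probe sets. Probe set 226553_at read 291, 209 and 263 on the control arrays and 2351, 2071 and 2331 on the DHT arrays. The lowest DHT array was thus well above the highest control array. Its mean went from 254 ± 41.7 to 2251 ± 157 (SD, n = 3 each), an 8.85-fold rise in mean signal, and its difference was 3.08 ± 0.11 (SE, 95% interval 2.84 to 3.32, limma adjusted p = 4.19e-08). Only 2 of the 32768 tested probe sets on the array rose more, since it ranked 3 by the size of the difference.

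TMPRSS2 probe set 205102_at read 128, 129.5 and 108 in control and 891, 961 and 1072 with DHT. This was a 7.99-fold rise from 122 ± 11.9 to 974 ± 91.2, with a difference of 2.84 ± 0.10 (limma adjusted p = 4.08e-08). The groups were again far apart, and the probe set ranked 4 by rise. Probe set 211689_s_at read 281, 312 and 319.6 in control and 2252, 2000.3 and 1938 with DHT, a 6.78-fold rise with a difference of 2.70 ± 0.08 (adjusted p = 2.27e-08) and rank 5. The 3 bright TMPRSS2 probe sets thus gave 6.78- to 8.85-fold rises on the same arrays. Their differences ranged from 2.11 to 3.17 over all alternatives of the processing, spike scaling included.

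The fourth TMPRSS2 probe set, 1570433_at, was much dimmer and less certain. It read 8.23, 22.1 and 47.6 in control and 58.8, 57.8 and 73.0 with DHT. The groups did not overlap, but the control arrays were spread more widely than the DHT arrays. Its mean rose 2.43-fold, with a difference of 1.02 ± 0.30 (95% interval 0.37 to 1.67) and a limma adjusted p of 0.0495, just past the threshold. It passed in 7 of 16 alternatives. With spike scaling it was lost, at 0.61 (adjusted p = 0.0669). It was lost without control replicate 1 (adjusted p = 0.129) or 2 (0.104), and without DHT replicate 1 (0.105), 2 (0.0978) or 3 (0.146), and it passed without control replicate 3 at 0.0102. The range of its adjusted p over all alternatives was 0.0102 to 0.146.

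SLC45A3, also called prostein, is a prostate-enriched membrane protein of a sugar transporter family. Probe set 228696_at read 339.6, 360.4 and 352 in control and 1127, 962 and 1056 with DHT. Every DHT array lay above every control array by a wide gap. The mean rose 2.99-fold from 350.8 ± 10.5 to 1048 ± 82.8, with a difference of 1.53 ± 0.08 (95% interval 1.36 to 1.71, limma adjusted p = 1.16e-06) and rank 26 of 32768. Probe set 238499_at read 239, 189 and 230.3 in control and 647, 525 and 518 with DHT. It gave a similar picture, a 2.57-fold rise from 219 ± 26.6 to 563 ± 72.5 with a difference of 1.30 ± 0.11 (adjusted p = 4.84e-05). Both passed in all 17 alternatives, with their lowest differences, 0.95 and 0.73, under spike scaling.

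NDRG1 encodes a cytoplasmic protein induced by stress, metal depletion and hormones. Its only single-gene probe set, 200632_s_at, read 266, 234 and 287 in control and 322, 294 and 263 with DHT. The groups overlapped, since DHT replicate 3 lay below 2 of the control arrays. The difference was 0.15 ± 0.11 (95% interval -0.08 to 0.38, limma adjusted p = 0.424), and -0.41 with spike scaling. The interval lies below the differences of TMPRSS2 and SLC45A3, but the differences between genes were not tested.

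**Figure D2:**
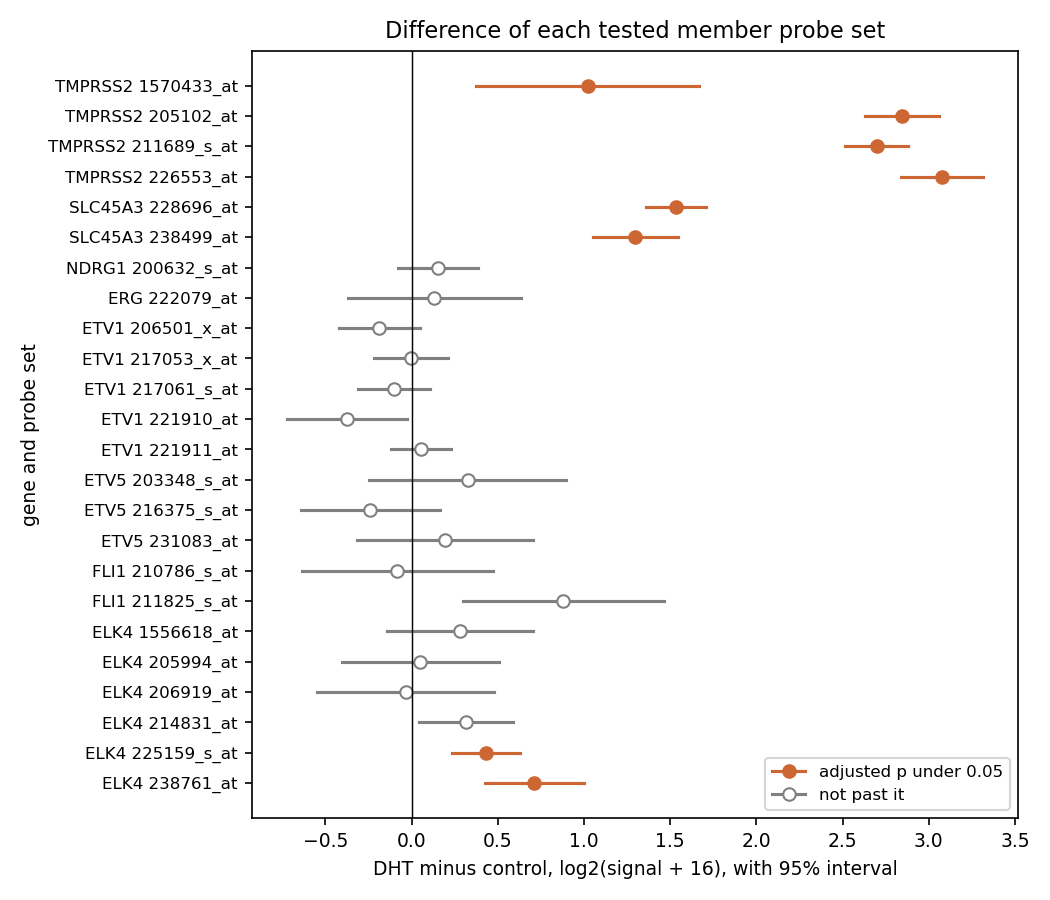
DHT minus control for each of the 24 tested member probe sets (horizontal axis, log2(signal + 16)), with the 95% interval from limma and filled symbols for an adjusted p under 0.05. The 6 TMPRSS2 and SLC45A3 probe sets and 2 of the 6 ELK4 probe sets are filled. With spike scaling ELK4 225159_s_at turned to -0.14, where the median of all tested probe sets was -0.47.

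Among the ETS members, ELK4 rose on 2 of its 6 tested probe sets with the deposited scaling and on none with spike scaling. ELK4 is a ternary complex factor, an ETS protein that joins serum response factor on the promoters of immediate early genes. Probe set 238761_at read 236, 195 and 287 in control and 379.9, 365 and 452 with DHT. Every DHT array was above every control array, and the mean rose 1.67-fold from 239 ± 46.3 to 399 ± 46.4, with a difference of 0.71 ± 0.13 (95% interval 0.42 to 0.998, limma adjusted p = 0.00564). Probe set 225159_s_at read 281, 341 and 298 in control and 413, 419.8 and 422 with DHT. The DHT arrays were close together and all higher, with a 1.36-fold rise from 307 ± 31.0 to 418 ± 4.26 and a difference of 0.43 ± 0.09 (0.24 to 0.63, adjusted p = 0.0103). Both passed with each array left out in turn. With spike scaling the first fell short at 0.14 (adjusted p = 0.537) and the second turned to -0.14 (0.463), and without limma's intensity trend their adjusted p-values were 0.0601 and 0.0783. With equal array medians 225159_s_at had an adjusted p of 0.0582.

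The other ELK4 probe sets did not pass. Probe set 214831_at read 90.5, 114 and 102 in control and 142, 122 and 129 with DHT, without overlap, and its difference was 0.32 ± 0.12 (95% interval 0.04 to 0.59, limma adjusted p = 0.142). Probe set 1556618_at read 26.5, 39.996 and 36.4 against 36.6, 52.2 and 46.5, a difference of 0.28 ± 0.19 with overlap. Probe sets 205994_at (22.4, 38.3 and 24.2 against 27.4, 28.1 and 32.7) and 206919_at (43.7, 26.0 and 33.1 against 49.6, 24.9 and 26.5) overlapped fully, with differences of 0.05 and -0.04. ELK4 230549_at lay below the limit. Whether the ELK4 probe sets that rose also read the chimeric SLC45A3 transcript was not tested, since the probe positions were not used here.

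ETV1, a PEA3 group ETS factor, had all 5 of its probe sets above the limit, and none of them passed in limma. Probe set 221911_at read 937, 963 and 1040.5 in control and 943, 1104 and 1010.3 with DHT. The groups overlapped throughout, with means of 980.3 ± 53.8 and 1019 ± 80.9 and a difference of 0.05 ± 0.08 (95% interval -0.12 to 0.23, limma adjusted p = 0.752). The interval's upper bound of 0.23 lies below the TMPRSS2 differences.

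The other ETV1 probe sets showed overlap or small falls that did not pass. Probe set 206501_x_at read 611, 548 and 701 against 483, 537 and 607, a difference of -0.19 ± 0.11 (limma adjusted p = 0.324). Probe set 217053_x_at read 361, 420.3 and 451 against 372, 435 and 419, with means of 411 and 409. Probe set 217061_s_at read 356, 387 and 445 against 347, 387 and 365, a difference of -0.10 ± 0.10. The dimmer 221910_at was the only member probe set with all DHT arrays below all control arrays, at 87.3, 83.1 and 56.9 against 91.4, 107 and 107. Its difference was -0.37 ± 0.16 (95% interval -0.72 to -0.03), with an adjusted p of 0.177. With spike scaling all 5 ETV1 probe sets passed as lower, with differences of -0.54 to -0.88. With that scaling the median of all 32768 tested probe sets was -0.47, and 16249 of them passed as lower.

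MIPOL1, which in LNCaP is known to host the ETV1 locus, read 548, 469 and 605 in control and 551, 554 and 634 with DHT, a difference of 0.10 ± 0.10 (limma adjusted p over genes = 0.57). FOXA1, a pioneer factor for the androgen receptor that lies beside MIPOL1, read 1109.9, 1129 and 1096 against 1008, 1151 and 1061, a difference of -0.05 ± 0.07 (0.705). Both genes, like ETV1 on its brightest probe set 221911_at, had overlapping groups. Of 8 genes listed around ETV1 and its insertion site, 5 were tested and none passed in limma, where 7.07% of all 14247 tested genes were higher and 6.04% lower. At an unadjusted p under 0.05 the count was also 0, where 1969 of all genes were higher and 1739 lower. DGKB, a diacylglycerol kinase gene next to ETV1, was at -0.14 ± 0.13 (adjusted p = 0.576). With spike scaling MIPOL1 (-0.48, adjusted p = 0.0159), FOXA1 (-0.64, 0.000401) and DGKB (-0.65, 0.00341) passed as lower. So did 8001 of all 14247 tested genes, where 121 were higher.

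The remaining ETS members lay near or below the limit. ERG, the most common ETS fusion gene of prostate cancer and normally a factor of endothelial and blood stem cells, had 1 tested probe set of 4. Probe set 222079_at read 15.02, 28.6 and 17.2 in control and 19.96, 20.98 and 29.4 with DHT, overlapping, with a difference of 0.13 ± 0.23 (95% interval -0.37 to 0.63, limma adjusted p = 0.791). These values were near the limit of 16.1, where a signal cannot be told apart from background without detection calls, which were not used here. The other 3 ERG probe sets had means of at most 9.52 in either group.

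ETV4, another PEA3 group factor, had both of its probe sets below the limit. The brighter, 1554576_a_at, read 5.10, 8.31 and 8.03 in control and 4.22, 4.92 and 18.3 with DHT. ETV5, the last of the PEA3 group, had 3 of 5 probe sets tested, and none passed. Its brightest, 216375_s_at, read 35.5, 51.2 and 48.5 against 39.7, 35.0 and 31.7, a difference of -0.24 ± 0.18 (limma adjusted p = 0.483). With spike scaling it passed as lower at -0.66 (0.0114), as did 16249 of all 32768 tested probe sets. ETV5 203348_s_at read 8.02, 26.6 and 25.9 against 34.0, 27.4 and 22.8, and 231083_at read 18.3, 27.3 and 13.1 against 20.2, 31.1 and 21.8. All 3 ETV5 probe sets overlapped between groups, with differences of 0.33 and 0.19 for the last 2.

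FLI1, the closest relative of ERG and best known from Ewing sarcoma fusions, had 2 of 6 probe sets tested. Probe set 211825_s_at read 6.81, 4.10 and 21.0 in control and 37.3, 26.9 and 30.3 with DHT. The groups did not overlap, but the control mean of 10.6 ± 9.09 lay below the limit, so the probe set was tested only through the DHT arrays, at a mean of 31.5 ± 5.31. Its difference was 0.88 ± 0.27 (95% interval 0.30 to 1.46), with a limma adjusted p of 0.0581. It passed without control replicate 3, at a difference of 1.14 (adjusted p = 0.0284), and its adjusted p ranged up to 0.168 over the alternatives. The other tested FLI1 probe set, 210786_s_at, read 10.4, 31.0 and 20.2 against 20.0, 17.5 and 15.3, a difference of -0.08 ± 0.25 (adjusted p = 0.888). The remaining 4 FLI1 probe sets were below the limit.

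Endothelial markers, of the cell type in which ERG and FLI1 are usually found, were low in both groups. Of 7 such genes, PECAM1 and VWF were tested and neither passed in limma, while CDH5, TEK, KDR, CLDN5 and ESAM were below the limit. Their summed signal ranged from 238 to 272 in control and from 221 to 294 with DHT. For leucocyte markers 2 of 6 were tested, neither passed, and the sums ranged from 104 to 137 in control and from 107 to 129 with DHT. For stroma 4 of 5 were tested and COL1A1 alone passed, as lower, where 6.04% of all 14247 tested genes were lower. At an unadjusted p under 0.05 in limma, 0 endothelial markers and 1 leucocyte marker were lower, where 1739 of all 14247 tested genes were.

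Beyond the members, 22 other ETS family genes were read from their brightest single-gene probe set. Of these, 16 were tested, 1 was higher and none lower in limma, where 7.07% of all genes were higher and 6.04% lower. That share of higher genes was near that of all genes, and the median difference was 0.04 against 0.02. At an unadjusted p under 0.05, 0 of the 16 were lower, where 1739 of all 14247 genes were. The gene that passed was EHF, an ETS factor of glandular epithelia, which read 1907, 1868 and 1952 in control and 2411, 2423 and 2501 with DHT. Its arrays were tight and did not overlap, with a difference of 0.35 ± 0.06 (limma adjusted p over genes = 0.00371), but -0.24 with spike scaling. Of the 6 EHF probe sets, 224189_x_at also rose (0.28, adjusted p over probe sets = 0.0457), and the mean of all of them gave 0.14 (adjusted p = 0.264). SPDEF, a prostate epithelial ETS factor, read 355, 330.1 and 335 against 378, 359.7 and 379 on a probe set prone to cross-hybridisation. Its groups did not overlap, with a difference of 0.12 ± 0.08 (0.352), and ETS2 was at -0.56 ± 0.38 (0.404) with wide overlap. With spike scaling both passed as lower, SPDEF at -0.45 (adjusted p = 0.0243) and ETS2 at -0.90 (0.0112), as did 8001 of all 14247 tested genes.

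**Figure D3:**
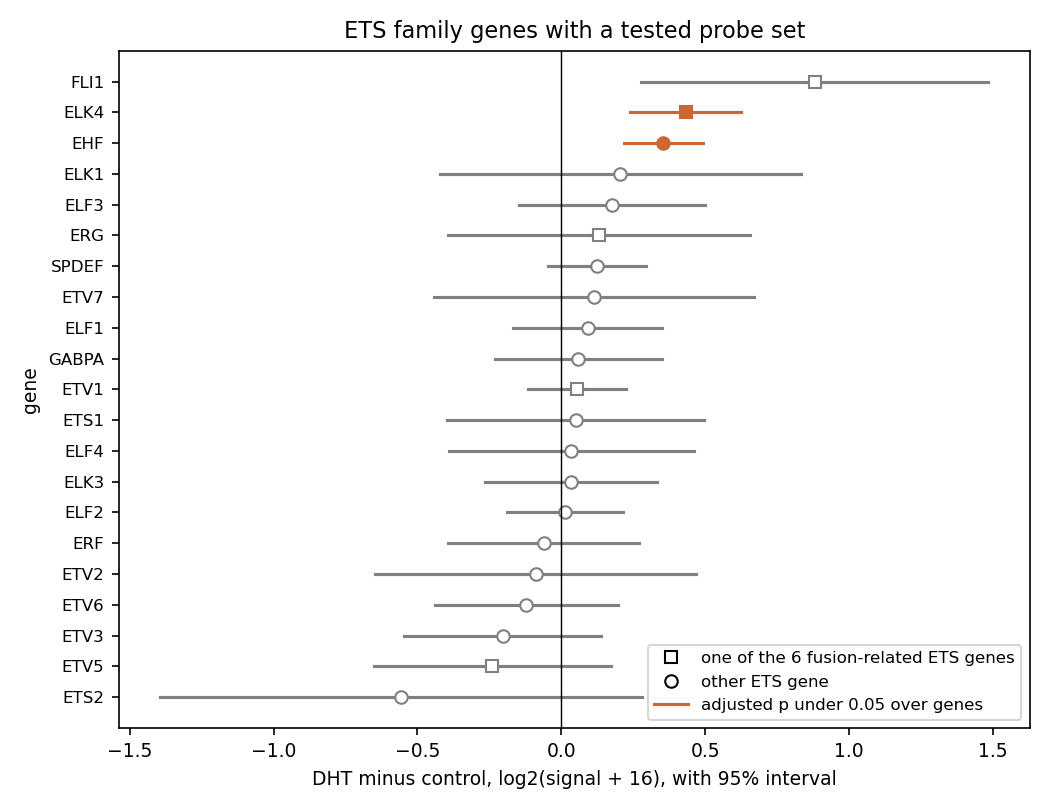
DHT minus control for the 21 ETS family genes with a tested probe set, 1 probe set a gene (horizontal axis, log2(signal + 16)), with the 95% interval, squares for the fusion-related ETS members and circles for other ETS genes. ELK4 and EHF are filled, with an adjusted p under 0.05 over genes. With spike scaling they are at -0.14 and -0.24, where the median of all tested probe sets is -0.47.

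With the deposited scaling several other genes known as 5' fusion partners of ETS genes rose. Of 10 such genes, all tested, 5 were higher and none lower in limma, where 7.07% of all genes were higher and 6.04% lower. At an unadjusted p under 0.05, 0 of the 10 were lower, where 1739 of all 14247 genes were. The median difference was 0.29, against 0.02 over all genes. The list's difference from other genes was not tested. KLK2, a prostate kallikrein, read 103, 120.2 and 103 in control and 2218, 2056 and 1974 with DHT, a 19.2-fold rise with a difference of 4.07 ± 0.08 (adjusted p over genes = 1.45e-10). FKBP5, a co-chaperone of steroid receptors, read 229, 223 and 212 against 465, 316 and 358, a difference of 0.72 ± 0.12 (0.00299), but 0.15 (0.471) with spike scaling. Its other tested probe sets did not pass, and the mean of them all gave 0.31 (adjusted p = 0.147). CANT1, a nucleotidase of the secretory pathway, read 727, 766 and 743 against 1069.6, 1023 and 1064, a difference of 0.49 ± 0.07 (0.000655) that became -0.10 with spike scaling.

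HERPUD1, a component of protein degradation at the endoplasmic reticulum, had a difference of 0.35 ± 0.08 (limma adjusted p over genes = 0.014), and FOXP1, a forkhead transcription factor, one of 0.27 ± 0.08 (0.0405). Neither call was firm. HERPUD1 was lost without control replicate 3 (adjusted p = 0.0591) or DHT replicate 2 (0.0588). FOXP1 passed only without DHT replicate 1 when arrays were left out, and had adjusted p-values of 0.0921, 0.0949 and 0.0899 without control replicate 1, 2 or 3 and of 0.159 and 0.0917 without DHT replicate 2 or 3. Both turned negative with spike scaling, at -0.24 and -0.32. The 5 partners that did not pass were HNRNPA2B1, DDX5, STEAP3, UBTF and OR51E2, with differences from -0.10 to 0.30. Promoters of 8 of these 10 genes were in the table, 17 in all. FKBP5 and FOXP1 held AGAACA, as did 14.8% of all promoters, and DDX5 held CCGGAAGT, as did 4.14%.

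Besides SLC45A3 and ELK4, 3 adjoining genes were higher with the deposited scaling. With spike scaling NUCKS1 was at -0.23, RAB29 at -0.03 and SLC41A1 at -0.05, where the median of all tested probe sets was -0.47. In the order of protein-coding genes in RefSeq GRCh38.p14, ELK4, SLC45A3, NUCKS1, RAB29 and SLC41A1 follow each other without a gap, and all 5 were higher at gene level with the deposited scaling, whereas with spike scaling SLC45A3 alone stayed positive. As the mean of its probe sets ELK4 was at 0.29 and did not pass (adjusted p = 0.0756). In a window of 22 genes, 14 were tested, these 5 were higher and none was lower in limma, where 7.07% of all genes were higher and 6.04% lower. At an unadjusted p under 0.05, 0 of the 14 were lower, where 1739 of all 14247 genes were. Another 5 of the 22 were below the limit and 3 had no single-gene probe set. The width of the window and the run of 5 were chosen after the values were seen, so the run is a description. The 5 genes had 1 promoter each in the table, and none held AGAACA, where 14.8% of all promoters did.

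RAB29, a small GTPase of the Golgi and lysosomes, read 328, 276 and 298 in control and 406, 474 and 459 with DHT. Every DHT array was above every control array, with a difference of 0.55 ± 0.09 (limma adjusted p over genes = 0.00276), and -0.03 with spike scaling. SLC41A1, a magnesium transporter, read 210.1, 230.2 and 269.9 against 349, 349 and 332, also without overlap, with a difference of 0.51 ± 0.10 (0.00558), and -0.05 with spike scaling. Both passed with each array left out in turn.

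NUCKS1, a chromatin-associated phosphoprotein next to SLC45A3, passed with less margin on its brightest probe set, 229353_s_at. It read 2108, 1764 and 1516 in control and 2179.8, 2335 and 2369 with DHT, a difference of 0.36 ± 0.10 (limma adjusted p over genes = 0.0388), and -0.23 with spike scaling. The call was lost without control replicate 2 (0.0884) or 3 (0.132) and without DHT replicate 1 (0.0641), 2 (0.106) or 3 (0.117). Of its 8 tested probe sets 6 passed over all probe sets as higher and none as lower, where 5.08% of all 32768 were higher and 5.27% lower. These probe sets read 1 gene on the same arrays and are not independent. The genes on either side of the run, SLC60A1 at -0.08 and PM20D1 at 0.17, did not pass.

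**Figure D4:**
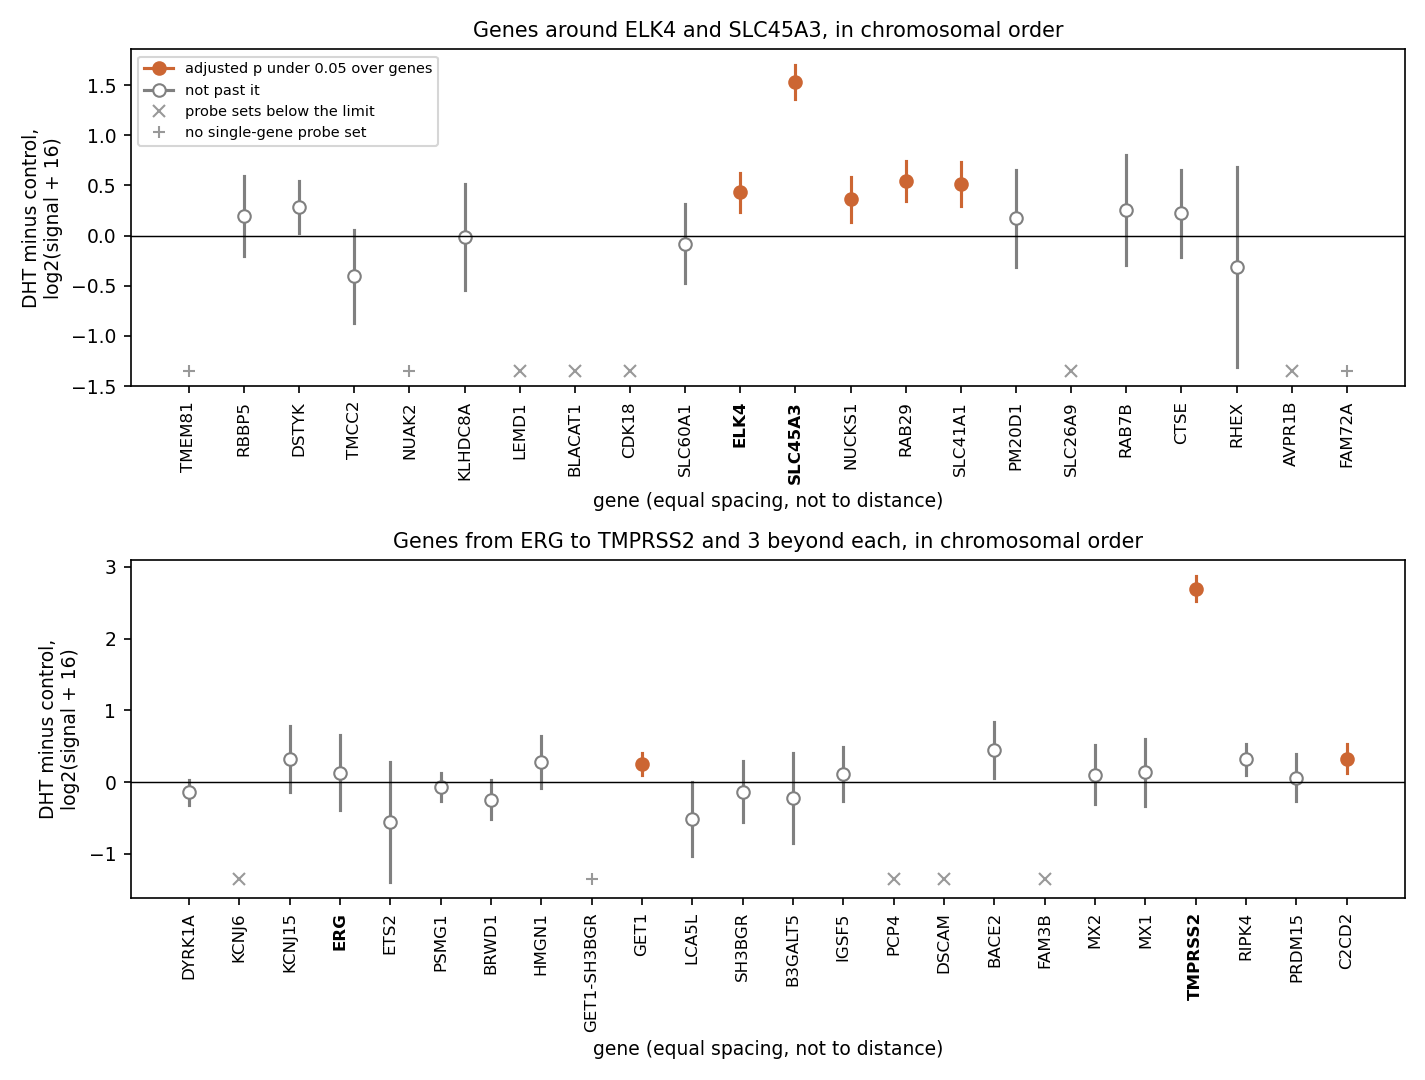
DHT minus control (vertical axis, log2(signal + 16)) of protein-coding genes in chromosomal order around ELK4 and SLC45A3 and from ERG to TMPRSS2, equally spaced, with 95% intervals, filled symbols for an adjusted p under 0.05 over genes, and crosses or plus signs for genes below the limit or without a single-gene probe set. The 5 filled genes from ELK4 to SLC41A1 stand side by side. TMPRSS2 at 2.70 stands between MX1 at 0.14 and RIPK4 at 0.32, which are not filled, and C2CD2 at 0.33 is filled. With spike scaling all of the 5 but SLC45A3 are at -0.03 to -0.23, where the median of all tested probe sets is -0.47.

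TMPRSS2 and ERG lie on the same chromosome, and the genes between them are lost in the deletion form of the fusion. Of 15 genes listed in this interval 12 were tested and 1 passed in limma as higher, with a median difference of 0.02. This share was near the 7.07% of all genes that were higher. The gene was GET1, a receptor for inserting tail-anchored proteins into the endoplasmic reticulum, which read 855, 861 and 826 against 953, 1032 and 1063. The groups did not overlap, and the difference was 0.26 ± 0.07 (adjusted p over genes = 0.0321), but -0.33 with spike scaling. The call was lost without control replicate 1 (0.0632), 2 (0.063) or 3 (0.1) and without DHT replicate 2 (0.0988) or 3 (0.116). MX1 and MX2, the interferon-induced genes on the ERG side of TMPRSS2, did not pass, at 0.14 ± 0.21 and 0.10 ± 0.19. Among the 3 genes beyond TMPRSS2, C2CD2 was higher at 0.33 ± 0.09 (0.034) with the deposited scaling but -0.24 with spike scaling. RIPK4, directly beside TMPRSS2 on that side, was at 0.32 ± 0.10 without overlap and did not pass (0.0618). The C2CD2 call was lost without control replicate 2 (0.0939) or 3 (0.109) and without DHT replicate 2 (0.0983) or 3 (0.119). It was also lost with the replicate number as a block (0.0543).

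Most genes of a list associated with ETS fusions, which gives no direction of change, did not pass. Of 24 such genes 17 were tested, 3 were higher and none lower in limma, where 7.07% of all genes were higher and 6.04% lower. The median difference was 0.14, and at an unadjusted p under 0.05, 0 of the 17 were lower, where 1739 of all 14247 genes were. For 2 of the 3, PLA1A and HPGD, the control mean lay below the limit, so they were tested only through the DHT arrays and their calls add no support to the count. PLA1A, a phosphatidylserine-specific phospholipase, read 13.3, 15.4 and 15.99 in control and 51.2, 36.5 and 41.3 with DHT, without overlap. Its difference was 0.93 ± 0.21 (adjusted p over genes = 0.0129), with a control mean of 14.9 ± 1.41. HPGD, which breaks down prostaglandins, read 5.45, 10.2 and 25.0 against 77.2, 33.3 and 50.2 on a probe set prone to cross-hybridisation, a difference of 1.24 ± 0.30 (0.0179) from a control mean of 13.5 ± 10.2. EZH2, the histone methyltransferase of Polycomb complexes, read 126, 111 and 109 against 177, 152 and 172, a difference of 0.48 ± 0.11 (0.0167), and -0.06 with spike scaling.

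All 3 of these calls depended on single arrays. PLA1A was lost without DHT replicate 1 (adjusted p = 0.0581), and with spike scaling at 0.56 (0.0538). HPGD was lost without control replicate 1 (0.0593) and without DHT replicate 1 (0.0818) or 3 (0.052). EZH2 was lost without control replicate 3 (0.0605) and without DHT replicate 1 (0.0607) or 3 (0.0572). The other fusion-associated genes, such as VIM, MMP7, MMP9, PLAUR, CXCR4 and HDAC1, did not pass, and PLAU, PLAT, MMP1, CRISP3, TDRD1 and PTGS2 were below the limit.

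Genes that report the output of the MAP kinase pathway, which acts on several ETS factors, were mostly without a call. Of 18 such genes 13 were tested, 2 were higher and none lower in limma, where 7.07% of all genes were higher and 6.04% lower. The median difference was -0.09, and at an unadjusted p under 0.05, 1 of the 13 was lower, where 1739 of all 14247 genes were. DUSP4, a phosphatase of MAP kinases, read 73.6, 73.9 and 62.6 against 102, 139.6 and 99.8, a difference of 0.58 ± 0.15 (adjusted p over genes = 0.0265). PHLDA1, a pleckstrin homology domain protein, read 52.3, 32.2 and 44.5 against 81.2, 67.0 and 77.0, a difference of 0.64 ± 0.18 (0.0345). DUSP4 was lost without control replicate 1 (0.0505) or 3 (0.0939) or DHT replicate 2 (0.111). PHLDA1 was lost without control replicate 2 (0.098) or 3 (0.0763) or any of the DHT arrays (0.108, 0.0571 and 0.0984). With spike scaling both calls ended, DUSP4 at 0.08 (adjusted p = 0.724) and PHLDA1 at 0.17 (0.478), and the mean of the PHLDA1 probe sets gave 0.30 (0.302). DUSP6, another such phosphatase, was below the limit.

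Over the 6 arrays at gene level, the genes whose profile was most like that of TMPRSS2 were GCNT1, KLK2, HECA, ZMIZ1 and CLDN8, each with a Pearson r of 0.998 to 0.999. The arrays form 2 separate groups, so this likeness mostly reflects a gap between groups, and 444 of 14246 genes reached r of 0.95. Among the members, r with TMPRSS2 was 0.998 for SLC45A3, 0.943 for ELK4, 0.856 for FLI1, 0.584 for NDRG1, 0.318 for ERG, 0.312 for ETV1 and -0.62 for ETV5.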

How the data were processed

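The 10 genes, the companion lists and the spike scaling were chosen with earlier results of these data known. Total RNA of 6 LNCaP cultures was hybridised to 1-colour Affymetrix arrays, 1 array a culture, and samples were grouped by their titles. The authors deposited linear signal intensity values. The submitters' processing notes name MAS5, with no version. MAS5 subtracts mismatch signal and scales whole arrays, so dim values are noisy and every change is relative to the average transcript. All deposited columns were used as they were.

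Probe sets were named from the platform annotation, where 41097 name 1 gene, 1801 several and 11777 none here. Symbols were looked up in RefSeq GRCh38.p14, which matched 41043 and changed 0. After 62 controls and the lowest 40% by mean log2 signal were left out, 32768 probe sets were fitted on log2(signal + 16) with limma 3.58.1 in R 4.3.3 (lmFit, eBayes with an intensity trend), with Benjamini-Hochberg adjustment over all of them and a threshold of 0.05. Companion genes were read from the brightest probe set naming them alone (those ending in _x_at only where no other passed) in a fit of 14247 genes, adjusted over genes. Signals are mean ± SD and differences are given with limma's SE. Residual degrees of freedom were 4, and 11.4 (median) with those that limma borrows. The fit was tested on simulated data with known changes.

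Named genes are every tested member probe set, the genes of each list that passed (up to 6) and KLK2, SPDEF, ETS2, EHF, FOXA1, MIPOL1 and DUSP6, and the first 2 of a list in which none passed. Others named were chosen after their values were seen. The labels call the cultures biological replicates without saying whether they were grown apart, so p-values measure the spread between these samples, whose number limits the precision. Array ratios were tested by exact permutation of the arrays, two-sided (scipy 1.17.1, pandas 2.3.3, Python 3.11.15). Alternatives were pseudocounts of 1 and 64, no limit or one at 60%, quantile normalisation, equal array medians, scaling to 9 spike probe sets, the replicate number as a block, no trend, a robust fit, gene values averaged over probe sets and each array left out. Chosen after the data were seen were a limit set on log2(signal + 16) and gene p-values taken from the probe set fit. Probe sequences, scanner files and detection calls were not used here.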

Additional observations from a re-analysis of the deposited data

How the results depend on the processing

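The bright TMPRSS2 and both SLC45A3 probe sets passed as higher in all 17 alternatives, and the number of arrays and the noise of MAS5 at low signal limit the dim ones. Against 8 member probe sets higher and 0 lower, 5 were higher without the intensity trend, 5 higher and 6 lower with spike scaling, and 7 to 9 higher with 1 array left out. Over all probe sets, 1663 higher and 1727 lower became 874 higher with equal medians, 692 and 611 without the trend, 189 and 16249 with spike scaling, and 1039 to 1380 higher and 975 to 1313 lower with 1 array left out (lowest without DHT replicate 3 and control replicate 3). Of the companion genes, 15 higher and 0 lower became 7 higher with equal medians, 7 without the trend, 2 higher and 33 lower with spike scaling, 1 lower when probe sets of a gene were averaged, and 9 to 11 higher and 0 to 1 lower with 1 array left out. The lowest, 9, came without control replicate 3 or without DHT replicate 2 or 3. Over all 14247 tested genes, 121 were higher and 8001 lower with spike scaling. The replicate numbers did not pair the arrays, whose deviations correlated at r = -0.014, -0.031 and -0.0019 between equal numbers; with the replicate number as a block 8 member probe sets were higher and 0 lower, and 16 companion genes were higher and 1 lower. The limit on log2(signal + 16) gave 8 higher and 0 lower members, and gene p-values from the probe set fit gave 15 and 0 companion genes.

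Spike scaling reversed the sign of NDRG1 (-0.41), ERG (-0.21), ETV1 221911_at (-0.54), ETV5 203348_s_at (-0.015) and 231083_at (-0.14), ELK4 1556618_at (-0.14), 205994_at (-0.33), 214831_at (-0.21) and 225159_s_at (-0.14), and of the gene-level values of FLI1 (-0.39, then read from 210786_s_at), SPDEF (-0.45), EHF (-0.24), MIPOL1 (-0.48), C2CD2 (-0.24), CANT1 (-0.10), HERPUD1 (-0.24), FOXP1 (-0.32), EZH2 (-0.058), GET1 (-0.33), RAB29 (-0.028), SLC41A1 (-0.052) and NUCKS1 (-0.23). This scaling lowers nearly all values by construction. ETV1 221911_at was -0.0093 with equal medians, and ETV1 was -0.12, ETV5 0.093 and FOXA1 0.021 as means of their probe sets. FLI1 was -0.10 at gene level with a pseudocount of 1, which changed the probe set read. With 1 array left out, values ran from -0.044 to 0.20 for ELK4 205994_at, -0.25 to 0.096 for ELK4 206919_at, -0.090 to 0.064 for ETV1 217053_x_at, -0.0048 to 0.11 for ETV1 221911_at and -0.30 to 0.12 for FLI1 210786_s_at. Besides spike scaling, the gene-level calls of ELK4, EHF, HERPUD1, FOXP1, DUSP4, PHLDA1, GET1, NUCKS1 and C2CD2 ended with equal medians and without the intensity trend, that of EZH2 with equal medians and that of HPGD without the trend. Those of FOXP1, DUSP4, PHLDA1 and NUCKS1 also ended without the filter on dim probe sets. Those of ELK4, EHF, FKBP5, FOXP1 and PHLDA1 ended as means of their probe sets. The replicate block ended that of C2CD2 alone among the genes and probe sets named here (adjusted p = 0.0543). The cause of the other changes was not tested.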
